A study of Mus musculus with 2 samples.

Results

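The genes described here are 7 members of transforming growth factor beta (TGF-beta) family signalling, the ligands *Tgfb1*, *Inhba* and *Gdf15*, the receptors *Tgfbr1* and *Tgfbr2*, and the inhibitors *Smad7* and *Skil*. They were found by their symbols, 1 row each, among the 55386 features of the matrices, and were chosen by their levels in these same libraries, so those levels are described here without a test. Immune cells sorted for CD45 from the aortic adventitia of RankCreRosa26eYFP mice of about 16 weeks were profiled by droplet sequencing of transcript 3′ ends. The library at steady state pooled 3 untreated animals, and the AngII library pooled 2 animals given angiotensin II at 1.8 µg per kg per min for 10 days. In this line, which both groups carry, Cre is made from the *Rank* gene and switches on an eYFP reporter that descendants keep, and a cell with at least 1 transcript of it (listed as EYFP) is called *Yfp*+.

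TGF-beta1 is secreted in a latent form, bound to its propeptide, and must be released before it can bind the type II receptor TGFBR2, which then recruits and phosphorylates the type I receptor TGFBR1. The active receptor phosphorylates SMAD2 and SMAD3, which enter the nucleus with SMAD4. Activin A, a dimer of the *Inhba* product, acts through its own type I and type II receptors on the same SMADs, whereas GDF15, a distant family member made by stressed cells, acts through the GFRAL receptor of the brainstem. In arteries TGF-beta is known for its part in matrix production and in keeping the wall intact.

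Transcripts were counted by their molecular tags (unique molecular identifiers, UMIs). After barcodes with fewer than 300 or more than 6500 genes or over 5% mitochondrial UMIs were left out, 306 cells with a median of 9105 UMIs remained at steady state and 4198 with a median of 1092 on AngII. The libraries shared 0 cell barcodes. Cells were assigned to classes by marker lists, and 129 and 1846 passed the macrophage gate alone. Of them, 98 (76.0%) and 311 (16.8%) were *Yfp*+. Marker genes of fibroblasts, which should be absent after sorting, summed to 5.50 and 8.11 counts per 1000000 UMIs (CPM) in macrophages. As each condition is a single library, the spread between animals is not known and no p-value is given. Intervals in parentheses are exact 95% Poisson intervals for CPM and its ratios and exact Clopper-Pearson intervals for shares of cells, and they cover counting error only. CPM compares 1 gene between groups of cells, and as reads come from transcript 3′ ends, order between genes was not read from it.

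*Tgfb1* (ENSMUSG00000002603.15, chromosome 7, 25687002 to 25705077, plus strand) was the most widely detected ligand. Coordinates count from 1 on the GRCm38 build, and gene bounds are those of GENCODE M21. It had 709 UMIs in 207 of 306 cells at steady state and 3540 UMIs in 1273 of 4198 cells on AngII. No cell held more than 3.67% of its UMIs at steady state or 0.819% on AngII, so its level in each whole library rests on many cells.

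*Inhba* (ENSMUSG00000041324.14, chromosome 13, 16011851 to 16031621, plus strand) and *Gdf15* (ENSMUSG00000038508.7, chromosome 8, 70629393 to 70632456, minus strand) were the opposite case. *Inhba* had 61 UMIs in 2 cells at steady state, 57 of them in 1 cell, and 624 UMIs in 58 cells on AngII, 159 of them in 1 cell. *Gdf15* had 11 UMIs in 4 cells at steady state and 207 UMIs in 70 cells on AngII, 73 of them in 1 cell. On AngII, 3 cells held 50% or more of the *Inhba* UMIs and 5 cells 50% or more of those of *Gdf15*, against 216 cells for *Tgfb1*. The sequence in front of these 3 genes differed in composition, and a link of composition with spread over cells was not tested. The 250 bases before the RefSeq transcription start (GRCm38.p6, 5′ to 3′ on the strand of the gene) are shown for the ligands because their spread over cells differed most, with each CG dinucleotide in capitals. They lie at chr7:25686752-25687001 for *Tgfb1*, chr13:16011601-16011850 for *Inhba* and chr8:70632457-70632706 for *Gdf15*.
Tgfb1: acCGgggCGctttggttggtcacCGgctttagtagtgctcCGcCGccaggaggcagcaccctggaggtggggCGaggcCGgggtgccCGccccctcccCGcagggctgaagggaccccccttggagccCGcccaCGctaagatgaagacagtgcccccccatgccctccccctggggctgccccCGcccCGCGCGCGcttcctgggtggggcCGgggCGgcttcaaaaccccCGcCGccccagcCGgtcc
Inhba: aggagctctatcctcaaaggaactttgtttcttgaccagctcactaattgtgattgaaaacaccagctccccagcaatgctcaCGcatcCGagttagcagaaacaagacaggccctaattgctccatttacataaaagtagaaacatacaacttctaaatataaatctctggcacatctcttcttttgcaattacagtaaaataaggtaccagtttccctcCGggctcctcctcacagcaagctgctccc
Gdf15: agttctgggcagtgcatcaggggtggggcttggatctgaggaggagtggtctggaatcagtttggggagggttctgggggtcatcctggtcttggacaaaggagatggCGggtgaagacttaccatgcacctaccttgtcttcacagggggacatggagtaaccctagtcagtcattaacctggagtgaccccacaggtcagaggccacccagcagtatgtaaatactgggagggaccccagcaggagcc

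The *Tgfb1* stretch held 21 CG dinucleotides at a GC content of 75.2%, more CG than or as many as 85.2% of 32851 promoter windows of this length. The *Inhba* stretch held 3 at 43.2% GC, and that of *Gdf15* held 1 at 56.4% GC, against a median of 6 over all windows. Of the receptors, *Tgfbr1* had 29 and *Tgfbr2* had 12. The AP-1 letters TGANTCA, searched on both strands, were in none of these 5 windows and in 6.75% of all windows. CAGAC, a core of SMAD binding sites, was in 2 of the 5, those of *Gdf15* and *Tgfbr2*, and in 42.2% of all windows. A match of letters is not a binding site, and a missing match says only that these letters are not in this window.

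Levels by cell class placed *Tgfb1* high in monocytes. At steady state it stood at 521 CPM (421 to 638) in nonclassical and 484 CPM (374 to 615) in classical monocyte-like cells, which overlap, and at 184 CPM (164 to 206) in macrophages. On AngII the values were 408 CPM (293 to 553), 370.3 CPM (335 to 409) and 193 CPM (183 to 203). Both monocyte classes lay above macrophages in both libraries, with intervals apart. At steady state they were small, and 1 cell held 26 of 94 UMIs in the 15 nonclassical and 25 of 66 in the 8 classical monocyte-like cells. Without that cell the levels were 469 CPM (365 to 595) and 471 CPM (338 to 639.6).

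Macrophage states, gated on other marker lists, hardly differed in *Tgfb1* on AngII. Resident-state cells (the homeostatic *Lyve1*, *Folr2* and *Cd163* profile) had 182 CPM, Ear2-state cells 176 and Arg1 Spp1-state cells 184, and all 3 intervals overlap. The Arg1 Spp1 list (*Arg1*, *Spp1*, *Thbs1*, *Hmox1*, *Fabp5* and others) marks a reparative or hypoxic profile. A further 68 AngII cells passed the Arg1 Spp1 gate but no cell class gate. They had *Lyz2* at 9642 CPM, *Csf1r* at 457 and *Itgam* at 562, yet *C1qa* at 126 CPM against 2946 in Arg1 Spp1-state macrophages, and none held an EYFP UMI. *C1qa* and *Csf1r* are on the macrophage gate list, which these cells by definition did not pass. Their *C1qa* level thus follows from the gate and is not a separate observation. These cells, called Arg1 Spp1 cells low in macrophage markers, had *Tgfb1* at 399 CPM (333 to 474), the level of monocytes. One cell held 28 of their 130 UMIs, and without it they were at 352 CPM (287 to 427). T-cell-like and B-cell-like cells had 115 and 192 CPM, so a *Tgfb1* UMI does not set macrophages apart from lymphocytes. After each cell was thinned to 1000 UMIs, 17.7% of AngII macrophages had a *Tgfb1* UMI, against 23.7% of B-cell-like and 12.1% of T-cell-like cells.

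**Figure D1:**
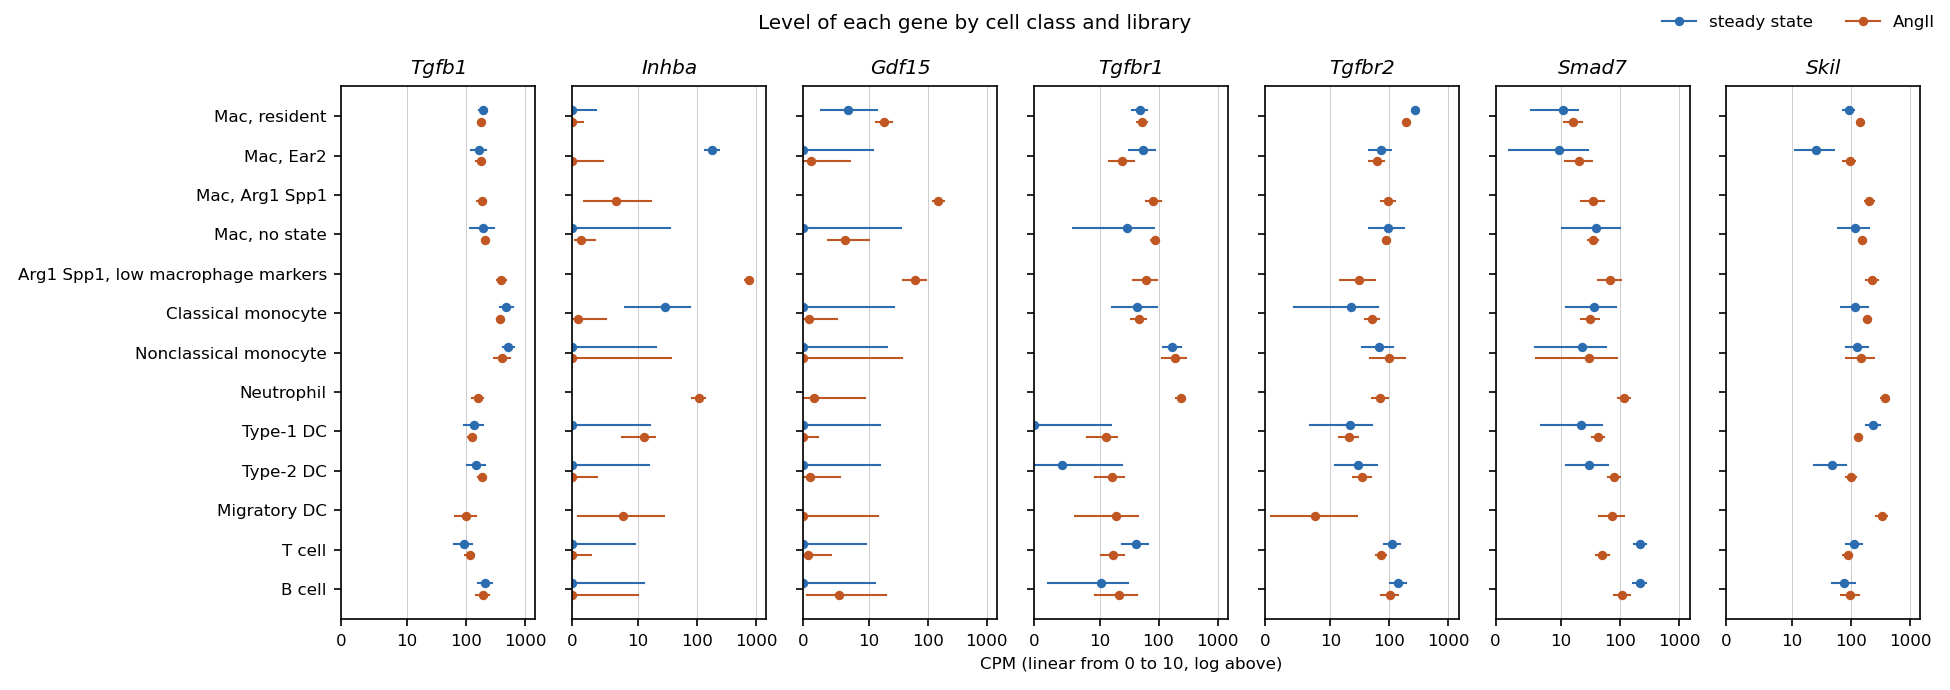
Level of each gene in CPM (horizontal axis, linear from 0 to 10 and logarithmic above) by cell class (vertical axis), in the steady-state (blue) and AngII (orange) libraries, for classes with at least 8 cells; points are pooled levels and bars exact 95% Poisson intervals. *Inhba* is near 0 in most classes and reaches 752 CPM in Arg1 Spp1 cells low in macrophage markers, *Gdf15* reaches 151 CPM in Arg1 Spp1-state macrophages, with 73 of 91 UMIs in 1 cell, and *Tgfbr2* is highest in resident-state macrophages of both libraries.

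*Inhba*, which encodes the activin A subunit, was almost absent on AngII from cells that passed the macrophage gate alone. There it had 14 UMIs in 6 of 1846 cells (0.325%), a level of 1.89 CPM (1.03 to 3.18), and no UMI in 440 resident-state cells (a limit of 1.34 CPM, taken at 3 UMIs). The same gene stood at 752 CPM (661 to 852) in the 68 Arg1 Spp1 cells low in macrophage markers, with 245 UMIs in 10 of them, and at 511 CPM (435 to 598) without the cell with most. Neutrophil-like cells had 109 CPM (84.1 to 139), but 58 of their 64 UMIs were in 1 cell, which also held 460 *Spp1* UMIs, and the level without it was 10.8 CPM (3.97 to 23.6). A further 105 UMIs lay in 25 of the 836 other cells that passed no gate, and 20 in 4 type-1 dendritic cell-like cells. Lymphocytes, which should lack the gene, had 0 UMIs in 315 T-cell-like cells (limit 2.30 CPM, median depth 1063 UMIs) and 0 in 83 B-cell-like cells (limit 8.13 CPM, median depth 4389). The cell with the most *Inhba*, at 159 UMIs of 32947, passed the macrophage and the classical monocyte gates together, so it is not among the 1846, and held 122 UMIs of *Thbs1* but 1 each of *Arg1* and *Spp1*.

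Most *Inhba* UMIs, though not most *Inhba* cells, lay in cells of the Arg1 Spp1 gate on AngII. Of the 58 cells, 19 passed that gate and held 485 UMIs, 77.7% of the total, 159, 87 and 86 of them in the 3 cells with most, while the gate took 391 of all 4198 cells (9.31%). An *Arg1* or *Spp1* UMI was present in 48 of the 58 (82.8%) and in 32.4% of all cells of the library. The cells with *Inhba* were deeper, at a median of 2213.5 UMIs against 1092, which by itself raises the chance of finding any UMI. *Yfp*+ cells were 2 of the 58 and held 14 of the 624 UMIs (2.24%). EYFP was rare in the classes with most *Inhba* cells, whether or not a cell held *Inhba*. An EYFP UMI was in 0 of the 68 Arg1 Spp1 cells low in macrophage markers and in 2.75% of the 836 other cells that passed no gate. The *Yfp*+ share of the whole library is not given, so 2 of 58 is not read as an absence. At steady state 1 *Yfp*+ Ear2-state macrophage of 45682 UMIs held 57 *Inhba* UMIs, and 1 classical monocyte-like cell held the other 4.

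*Gdf15*, a stress-induced cytokine, had its highest level in Arg1 Spp1-state macrophages, at 151 CPM (122 to 186) with 91 UMIs in 11 of 124 cells. One cell of 36506 UMIs held 73 of the 91, and 253 *Spp1* UMIs with them. Arg1 Spp1 cells low in macrophage markers followed at 61.4 CPM (37.5 to 94.8), with 20 UMIs in 5 of 68 cells. Resident-state macrophages had 18.4 CPM (13.2 to 24.9), with 41 UMIs in 18 of 440 cells and at most 10 in 1 cell, and Ear2-state macrophages 1.27 CPM (0.0323 to 7.10). The intervals of these 4 groups do not overlap, but without the cell of 73 UMIs the Arg1 Spp1-state macrophages were at 31.8 CPM (18.9 to 50.3). With their own top cell left out too, Arg1 Spp1 cells low in macrophage markers were at 42.5 CPM (21.9 to 74.2) and resident-state cells at 13.9 CPM (9.48 to 19.8). Both of these intervals overlap with that of Arg1 Spp1-state macrophages. Classical monocyte-like cells had 1 UMI in 160 cells, T-cell-like cells 1 in 315 and B-cell-like cells 2 in 83. The gene thus lay in macrophages and Arg1 Spp1 cells, and 58 of the 70 *Gdf15* cells passed the macrophage gate, against 11 of the 58 *Inhba* cells. Cells with a UMI of both ligands numbered 3.

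**Figure D2:**
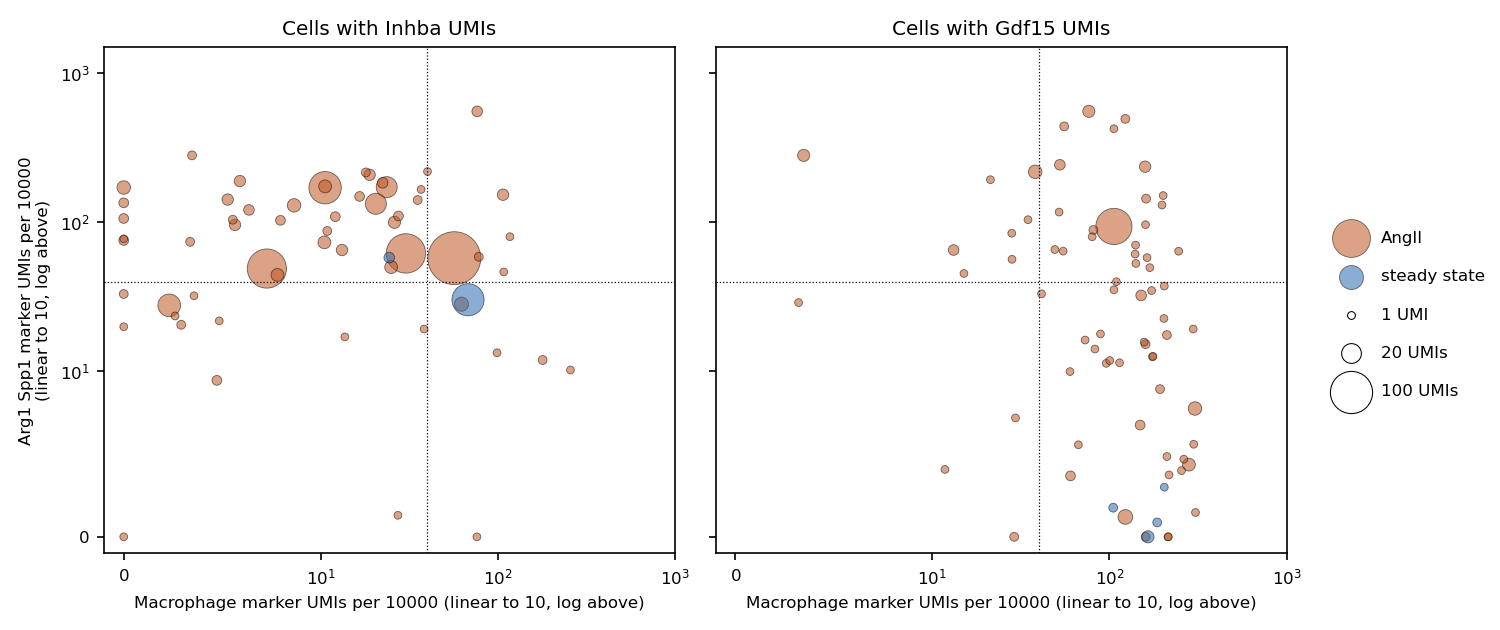
Each point is 1 cell with *Inhba* (left) or *Gdf15* (right) UMIs, placed by its macrophage marker UMIs (horizontal axis) and Arg1 Spp1 marker UMIs (vertical axis) per 10000, both axes linear to 10 and logarithmic above; area grows with the UMIs of the gene, colours mark the library and dotted lines the gate of 40. *Inhba* cells lie mostly left of the macrophage line, and the 4 cells with most *Inhba* lie above the Arg1 Spp1 line, while AngII *Gdf15* cells lie mostly right of the macrophage line.

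*Tgfbr1* (ENSMUSG00000007613.15, chromosome 4, 47353222 to 47414931, plus strand), the type I receptor, was highest in neutrophil-like cells on AngII, at 239 CPM (201 to 282) with 140 UMIs in 54 of 156 cells. Nonclassical monocyte-like cells had 189 CPM (114 to 295) on AngII and 172 CPM (117 to 244) at steady state, and overlap with neutrophils. Macrophages had 66.0 CPM (60.3 to 72.1) and 48.9 CPM (38.8 to 60.9), and classical monocyte-like cells 46.9 CPM (34.8 to 61.8) and 44.0 CPM (16.1 to 95.7). Type-1 dendritic cell-like cells were low, at 13.1 CPM (8.13 to 20.1) on AngII and no UMI in 11 cells at steady state (limit 12.8 CPM). Within AngII macrophages, Ear2-state cells at 24.2 CPM (14.6 to 37.8) lay below resident-state cells at 52.4 CPM (43.4 to 62.8) and Arg1 Spp1-state cells at 81.4 CPM (60.2 to 108).

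*Tgfbr2* (ENSMUSG00000032440.13, chromosome 9, 116084293 to 116175360, minus strand), the type II receptor that binds the ligand, had another order. Among classes of at least 8 cells, resident-state macrophages led in both libraries, at 271 CPM (240.4 to 305) with 277 UMIs in 84 of 98 cells at steady state, and 190.0 CPM (172 to 209) with 424 UMIs in 163 of 440 cells on AngII. Ear2-state macrophages had 71.0 CPM (44.5 to 108) and 61.2 CPM (45.1 to 81.1), and Arg1 Spp1-state macrophages on AngII 96.4 CPM (73.2 to 125). Arg1 Spp1 cells low in macrophage markers were at 30.7 CPM (14.7 to 56.4), so the class with the highest *Inhba* level was among those low in *Tgfbr2*. As 10 of its 68 cells held *Inhba*, and *Tgfbr2* was not read in those alone, this describes the class and not single cells. B-cell-like cells had 142 and 103 CPM and T-cell-like cells 112 and 72.0 CPM at steady state and on AngII. Type-1 dendritic cell-like cells (21.4 and 20.6 CPM) and classical monocyte-like cells (22.0 and 50.6 CPM) were low in both. After thinning to 1000 UMIs, 21.6% of resident-state macrophages at steady state and 16.9% on AngII had a UMI, against 16.3% and 5.08% of B-cell-like cells.

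*Smad7* (ENSMUSG00000025880.11, chromosome 18, 75367529 to 75395935, plus strand), the inhibitory SMAD that TGF-beta itself induces and that blocks the type I receptor, was highest in lymphocytes at steady state. T-cell-like cells had 218 CPM (174 to 269.7) and B-cell-like cells 215 CPM (165 to 276), against 11 CPM (6.52 to 17.4) in macrophages, where 18 UMIs lay in 8 of 129 cells. On AngII the B-cell-like cells had 108 CPM (77.4 to 148), T-cell-like cells 49.8 CPM (38.4 to 63.4) and macrophages 26.8 CPM (23.2 to 30.8). Both lymphocyte classes stayed above macrophages. Neutrophil-like cells at 116 CPM (90.1 to 147), type-2 dendritic cell-like cells at 78.4 CPM (61.9 to 98.0) and Arg1 Spp1 cells low in macrophage markers at 67.5 CPM (42.3 to 102) also lay above macrophages.

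*Skil* (ENSMUSG00000027660.16, chromosome 3, 31095058 to 31122577, plus strand) encodes SnoN, which represses genes at SMAD sites and is itself a TGF-beta target. It led in neutrophil-like cells at 372 CPM (324 to 425) and migratory dendritic cell-like cells at 335 CPM (268 to 413) on AngII, which overlap. Arg1 Spp1-state macrophages at 204 CPM (169.9 to 244) lay above resident-state cells at 142 CPM (127 to 159) and Ear2-state cells at 94.3 CPM (74.1 to 118). At steady state type-1 dendritic cell-like cells had most among classes of at least 8 cells, at 235 CPM (177 to 306), and on AngII the same class had 133 CPM (115 to 152). Resident-state macrophages at steady state had 92.1 CPM (74.4 to 113).

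Between the conditions, macrophages as a whole differed by at least 2-fold in 3 of the 7 genes. *Gdf15* was higher on AngII, at 22.2 against 4.28 CPM (5.18-fold, 2.46 to 13.1), and so was *Smad7*, at 26.8 against 11 CPM (2.43-fold, 1.5 to 4.19). These 2 of 7 compare with 6.72% of the 9426 genes with at least 50 UMIs over both groups. *Inhba* was lower, at 1.89 against 34.9 CPM (ratio 0.0543, 0.0279 to 0.0987), where 6.07% of genes lay. All 57 of its steady-state UMIs came from 1 cell, and without that cell no *Inhba* UMI was left in the other 128 macrophages, so this difference is that of 1 cell. *Skil* fell short of 2-fold, at 146 against 75.2 CPM (1.94-fold, 1.61 to 2.36). After thinning to 1000 UMIs the genes past 2-fold were *Skil* (2.95) and *Tgfbr1* (2.56) instead, and *Gdf15* and *Smad7* had no UMI left at steady state. *Tgfbr1* stood at 1.35-fold (1.06 to 1.73), *Tgfb1* at 1.05-fold (0.926 to 1.19) and *Tgfbr2* at 0.587-fold (0.517 to 0.668). The median log2 ratio was 0.43 over the 7 genes and -0.01 over all genes. For *Gdf15* the ratio was 20 without the top cell of each library, as 6 of the 7 steady-state UMIs lay in 1 cell. *Smad7*, *Skil* and *Tgfbr1* were high in neutrophils and *Smad7* in lymphocytes too. Neutrophil markers summed to 452 CPM in macrophages on AngII against 243 at steady state, while those of B cells summed to 224 against 451 and those of T cells to 35.2 against 57.5. Classical monocyte markers summed to 1484 CPM in macrophages on AngII against 519 at steady state. The part of these markers was not tested.

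The mix of states differed between the libraries, since resident-state cells made up 98 of 129 macrophages at steady state and 440 of 1846 on AngII. In resident-state macrophages alone, 4 genes had 50 UMIs and none of them reached 2-fold, where 5.07% of 6925 genes were higher and 4.91% lower. *Skil* was 1.54-fold higher on AngII (1.22 to 1.96) and *Tgfbr2* was at 0.700-fold (0.60 to 0.817), both nearer to 1 than in all macrophages. *Tgfb1* stood at 0.938-fold (0.789 to 1.12) and *Tgfbr1* at 1.09-fold (0.776 to 1.56). *Gdf15*, with 41 against 7 UMIs, was at 2.68-fold (1.19 to 7.08) and *Smad7*, with 36 against 11, at 1.5-fold (0.745 to 3.26). Resident-state cells were not alike in the 2 libraries either. Classical monocyte markers summed to 1073 CPM in them on AngII against 92.1 CPM at steady state, and the part of this was not tested.

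Shares of cells need equal depth to be compared, as the steady-state library was deeper. Unthinned, 39.5% of macrophages at steady state and 27.0% on AngII had a *Skil* UMI. After thinning to 1000 UMIs the order turned, with 4.72% (1.75 to 10.00) of 127 cells at steady state and 12.4% (10.4 to 14.6) of 1026 on AngII, in the direction of the CPM. *Tgfbr2* went from 82.2% and 22.5% to 18.1% (11.8 to 25.9) and 12.1% (10.2 to 14.2), and *Smad7* from 6.20% and 6.45% to 0% (up to 2.86) and 2.53% (1.66 to 3.69). Thinning left out 2 and 820 macrophages that were shallower.

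**Figure D3:**
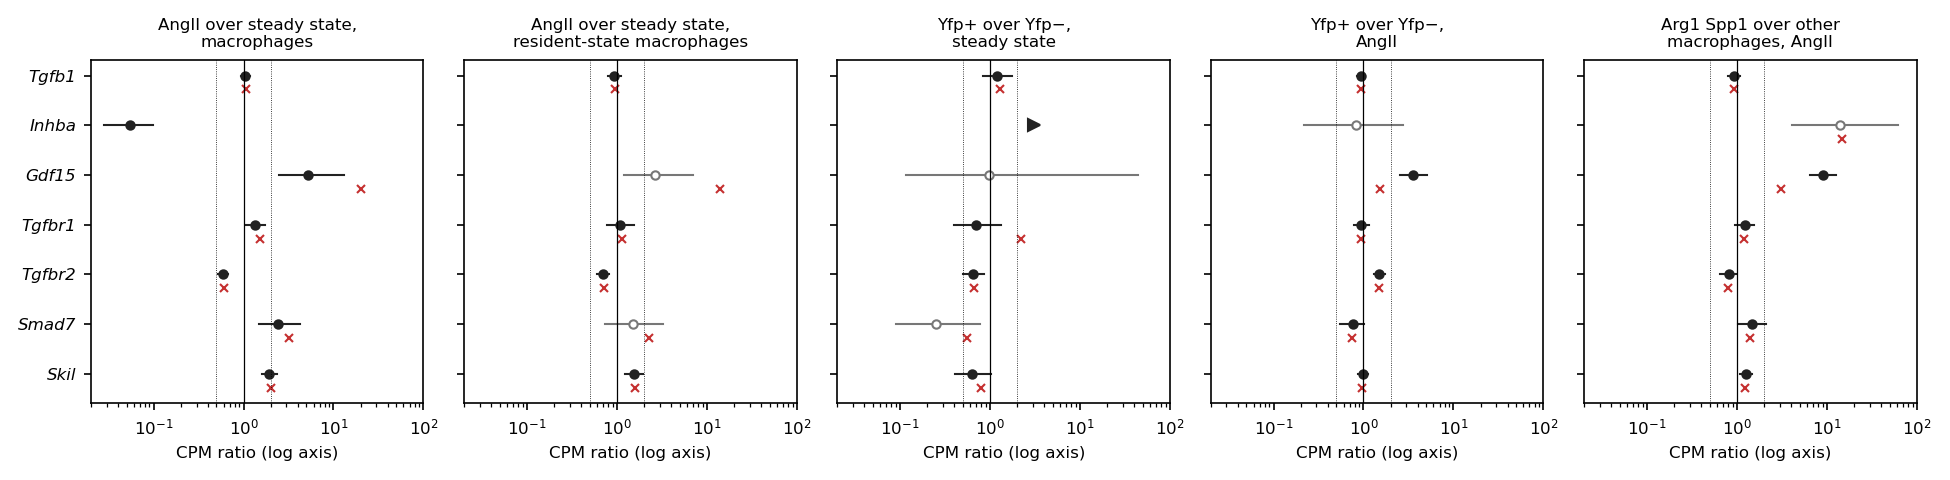
CPM ratio of each gene (logarithmic axis) in 5 comparisons of macrophages, with exact 95% intervals; filled points have at least 50 UMIs over both groups, open grey points fewer, the arrowhead is a lower bound against 3 UMIs, crosses leave out the top cell of each group and dotted lines mark 2-fold. *Gdf15* lies above 2-fold in 3 panels with at least 50 UMIs, but its cross on AngII *Yfp*+ over *Yfp*− lies at 1.52.

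On AngII, the 207 macrophages that passed the Arg1 Spp1 gate, in 1 state or more, were set against the 1639 others. *Gdf15* was 9.11-fold higher (6.59 to 12.7), at 91.3 against 10.0 CPM, and it alone of 6 genes with 50 UMIs passed 2-fold, where 1.82% of 8881 genes were higher and 3.99% lower. Without the cell with most *Gdf15* in each group the ratio was 3.1. *Skil* was at 1.27-fold (1.09 to 1.49), *Smad7* at 1.48-fold (1.03 to 2.10) and *Tgfbr2* at 0.810-fold (0.657 to 0.990), while *Tgfb1* and *Tgfbr1* had intervals that hold 1. *Inhba* had 10 against 4 UMIs. When the 68 Arg1 Spp1 cells low in macrophage markers were added, *Inhba* stood at 178 against 0.636 CPM (279.9-fold, 108 to 1035) and *Gdf15* at 8.43-fold, 2 of 7 genes, beside 2.45% of 8970 genes higher and 3.84% lower. Markers of classical monocytes summed to 1552 CPM in Arg1 Spp1-state macrophages, 1897 in the Arg1 Spp1 cells low in macrophage markers and 1073 in resident-state cells, and those of neutrophils to 216, 586 and 319 CPM. Their part in these results was not tested.

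By reporter, *Yfp*+ macrophages on AngII held most of the *Gdf15* UMIs, 116 against 48, at 38.9 against 10.9 CPM (3.57-fold, 2.53 to 5.11). It was the only one of 6 genes past 2-fold, where 0.844% of 8881 genes were higher and 1.05% lower. The cell with 73 UMIs was *Yfp*+, and without the top cell of each group the ratio was 1.52. In resident-state cells alone it was 1.53 (0.758 to 3.29), while pooled within all states, with that cell kept, it was 4.71. The median depth was 5304 UMIs in *Yfp*+ and 1001 in *Yfp*− cells, and the part of depth in the reporter call was not tested. By number of EYFP UMIs, *Gdf15* stood at 10.9 CPM with 0, 13 CPM with 1 and 45.5 CPM with 2 or more. *Tgfbr2* was at 99.1 CPM (90.0 to 109) with 0, 165 CPM (134 to 200.2) with 1 and 145 CPM (130.1 to 161) with 2 or more, a ratio of 1.5 (1.32 to 1.72) for *Yfp*+ over *Yfp*−. Resident-state cells, which had most *Tgfbr2*, were 30.5% *Yfp*+ against 16.8% of all macrophages, and within states the pooled *Tgfbr2* ratio was 1.22. *Skil*, *Tgfb1* and *Tgfbr1* differed by less than their intervals, at 0.986-fold, 0.945-fold and 0.950-fold.

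At steady state the groups were small, 98 *Yfp*+ and 31 *Yfp*− macrophages with median depths of 11322.5 and 6326 UMIs. *Inhba* was at least 3.05-fold higher in *Yfp*+ cells, through the 1 cell with 57 UMIs, and was the only one of 5 genes past 2-fold, where 5.12% of 4786 genes were higher and 1.73% lower. *Tgfbr2* was lower in *Yfp*+ cells, at 189 against 292 CPM (0.648-fold, 0.493 to 0.861), which is the opposite of its direction on AngII. Its levels were 292, 239.5 and 180.0 CPM with 0, 1 and 2 or more EYFP UMIs. In resident-state cells the ratio was 0.736 with an interval that reaches 1.02, and with *Adgre1* and *Itgam* as the macrophage gate it was 1.87. *Smad7* had 11 against 7 UMIs and *Gdf15* 6 against 1, too few to compare.

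**Figure D4:**
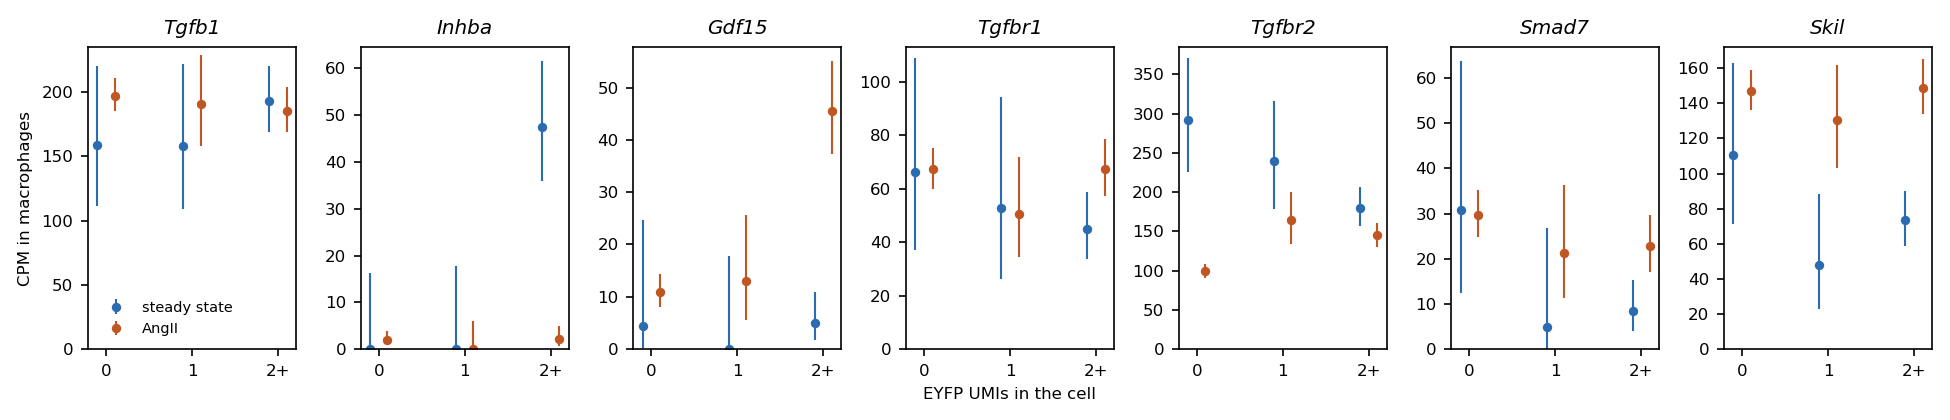
CPM of each gene in macrophages (vertical axes, linear from 0) by the number of EYFP UMIs in the cell (0, 1, or 2 and more), at steady state (blue) and on AngII (orange), with exact 95% Poisson intervals. *Tgfbr2* goes from 292 to 180.0 CPM at steady state and from 99.1 to 145 CPM on AngII, and *Gdf15* is at 45.5 CPM in AngII cells with 2 or more EYFP UMIs.

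The wider pathway was read from a list of 72 further genes, of which 40 had 50 UMIs in macrophages of the 2 conditions. On AngII 4 of the 40 were higher by at least 2-fold, 3 lower and 33 within, and their median log2 ratio was 0.17. Among ligands and genes that activate them, *Thbs1* (thrombospondin-1, an activator of latent TGF-beta) stood at 523 against 3.06 CPM, or 171-fold, and *Gdf3* at 64.9 against 8.56 CPM, or 7.58-fold. *Bmp2* was lower at 11.2 against 55.0 CPM (ratio 0.204). *Thbs1* is itself on the Arg1 Spp1 list, but it also stood at 138 CPM in resident-state cells on AngII, against no UMI at steady state, at least 46.9-fold higher. *Gdf3* was at 60.5 against 0.980 CPM in the same cells.

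None of the 6 receptors, 6 transducers and 8 inhibitors with 50 UMIs reached 2-fold in macrophages as a whole. *Acvrl1*, a type I receptor, was at 51.1 against 44.6 CPM, and *Smad4*, the common partner of the receptor SMADs, at 53.8 against 74.6 CPM. *Fkbp1a*, which holds the type I receptor inactive, was at 198 against 273 CPM. In resident-state cells *Acvr2a*, a type II activin receptor, was at 20.2 against 9.80 CPM (2.06-fold, 1.02 to 4.58). *Gfral* and *Ret*, the receptor pair for GDF15, and *Fst*, which encodes the activin antagonist follistatin, had no UMI in macrophages of either library (named after their values were seen).

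Among target genes of the family, which SMADs induce or repress, *Id2* stood at 186 against 80.7 CPM (2.30-fold) and *Id3* at 19.5 against 3.06 CPM (6.37-fold). *Tgfbi*, which encodes a secreted matrix protein, was within 2-fold at 941 against 662 CPM. Among stress genes, *Atf3* was lower on AngII, at 319 against 1138 CPM (0.28-fold), the opposite of *Gdf15*, and the other 6 with 50 UMIs were within 2-fold. In *Yfp*+ over *Yfp*− macrophages on AngII, 1 of 38 list genes was higher, *Bmp2* at 2.03-fold, and 2 were lower, *Thbs1* at 0.423-fold and *Id3* at 0.492-fold. At steady state 2 of 23 were higher, among them *Klf10* at 2.78-fold with an interval that holds 1 (0.902 to 13.9). In Arg1 Spp1 over other macrophages, 2 of 38 were higher, *Thbs1*, which the gate uses, and *Sesn2*, a stress-induced regulator of growth signalling, at 2.21-fold (1.37 to 3.46), and *Bmp2* was lower at 0.364-fold. With the cells low in macrophage markers added, *Id1* was at 3.1-fold (1.76 to 5.38).

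The genes most like each member over 15 groups of AngII cells, by Pearson's r of log2(CPM + 10) among genes with at least 200 UMIs, were the following. The groups hold at least 30 cells each, share 1 library and differ in depth, so r is a description. Some group levels rest on 1 cell, and r was not computed without it. Such a cell held 58 of 64 *Inhba* UMIs in neutrophil-like cells and 73 of 91 *Gdf15* UMIs in Arg1 Spp1-state macrophages. For *Inhba* they were the chemokine *Cxcl3* (r = 0.95), *Ube2j1* (0.82) and the interleukin *Il1a* (0.80), all highest in Arg1 Spp1 cells low in macrophage markers, where *Cxcl3* stood at 669 and *Il1a* at 755 CPM. For *Gdf15* they were *Fmn1* (0.87), *Gpnmb* (0.87), a gene of lysosome-rich macrophages, and the chemokine *Cxcl14* (0.85). *Tgfb1* was most like *Nrg1* (0.86), *Fis1* (0.85) and *Lrpap1* (0.84), and *Tgfbr1* like *Arap3*, *Ets2* and *Dgkh* (0.92 each), highest in neutrophil-like cells. *Tgfbr2* was most like *Fam3c* (0.91), *Pias1* (0.88) and *Zfp36l1* (0.87), *Smad7* like *Retreg1* (0.88), *Ubxn2a* (0.87) and *Gpbp1* (0.87), and *Skil* like *Ppp1r3b* (0.94), F630028O10Rik (0.92) and Gm42551 (0.92).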

How the data were processed

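The authors counted UMIs with Cell Ranger 3.1.0 on GRCm38.p6, per the submitters' processing notes, with GENCODE M24 and the eYFP sequence added per the study's methods. They deposited whole-number counts per gene and called cell barcode, unnormalized. The members, gene lists and gates were chosen with earlier results of these data known.

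Here, a barcode was kept with 300 to 6500 genes and no more than 5% of UMIs from mitochondria. A cell entered 1 of 13 classes when its marker UMIs per 10000 and its number of distinct markers passed the gate (40 UMIs and 3 markers for macrophages). For some pairs of gates a pass of the second was first cancelled. The classical monocyte gate gave way to the neutrophil, nonclassical monocyte and plasmacytoid dendritic cell gates. The NK cell gate gave way to the T cell gate, and the type-2 innate lymphoid cell gate to the T cell and mast cell gates. Cells still passing 2 or more gates, which take in doublets, were left out of classes. Those passing the macrophage and classical monocyte gates together formed a group of their own. Macrophage states were gated likewise, and the Arg1 Spp1 state also needed an *Arg1* or *Spp1* UMI. Levels are summed UMIs in CPM. Ratios carry exact conditional Poisson intervals, a count of 0 gives a bound at 3 UMIs, and cells were thinned without replacement to 1000 UMIs. Ratios within states were pooled by the Mantel-Haenszel method. With 1 library per condition there is no test, and a ratio counts as past 2-fold only with at least 50 UMIs over both groups. Depth ranged from 522 to 49485 UMIs per kept cell at steady state and from 500 to 54597 on AngII, so genes with few UMIs have wide intervals.

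Pathway genes named are, per comparison, up to 4 per direction with the largest ratio past 2-fold and, per role, the gene with the highest level in AngII macrophages. One gene that this rule names is counted but not reported here. Promoter sequences are from RefSeq on GRCm38.p6, used for 5 of the 7 genes, and the window nearest to the annotated start was used. Values were computed in Python 3.11.15 with pandas 2.3.3, SciPy 1.17.1 and NumPy 2.4.6, and figures with Matplotlib 3.10.9. Ratios and intervals were tested on simulated counts without the concentration in single cells seen here, and thinning on the AngII counts. Gates, states and pooling within states were not tested in this way. Alternatives changed the cell filter, the gates, the CPM, the depth, the reporter call and free RNA.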

Additional observations from a re-analysis of the deposited data

Results flagged for a closer look

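*Tgfbr2* had opposite directions in the reporter comparison of the 2 libraries. *Yfp*+ over *Yfp*− macrophages stood at a ratio of 0.648 (0.493 to 0.861) at steady state and 1.5 (1.32 to 1.72) on AngII, both intervals leaving out 1. The difference between the libraries was not tested, as each is 1 library. Within resident-state cells the ratios were 0.736 (0.540 to 1.02) and 1.24 (1.01 to 1.53). With *Adgre1* and *Itgam* as the macrophage gate they were 1.87 and 1.63, in the same direction.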

How the results depend on the processing

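No paired analysis was possible because each condition has 1 library. Of 86 recomputed counts of genes, past 2-fold or with a higher share of cells after thinning, 65 stayed within 1.5 times the count given. For AngII against steady state, 1 gene (*Inhba*) was lower. That count was 0 without the top cell of each group, after thinning to 1000 UMIs and with the *Adgre1* and *Itgam* gate, where the *Inhba* ratio turned to 1.01, and 2 with the mean of per-cell CPM or after subtracting the B-cell-like level, as *Tgfbr2* joined it. The 2 higher genes became 1 after that subtraction, since *Smad7* had no ratio left, were *Gdf15* and *Skil* with the *Adgre1* and *Itgam* gate, and were *Tgfbr1* (2.56) and *Skil* (2.95) after thinning, where *Smad7* was at least 1.11-fold higher with under 50 UMIs. With per-cell means *Skil* was at 1.07. In resident-state macrophages alone, a setting chosen after seeing the data, both counts were 0. For *Yfp*+ over *Yfp*− cells at steady state, the 1 higher gene became 0 with per-cell means, thinning, subtraction or pooling within states, and without the top cells it was *Tgfbr1* (2.21) in place of *Inhba*. The 0 lower genes became 1 with per-cell means (*Skil*) and 1 after subtraction (*Tgfbr2*). On AngII the 1 higher gene, *Gdf15*, became 0 with per-cell means (ratio 1.03), without the top cells (1.52) and after thinning (1.37), and 1 gene was lower with the *Adgre1* and *Itgam* gate (*Inhba*). For Arg1 Spp1 over other macrophages, the 1 higher gene became 0 after thinning, where *Gdf15* had under 50 UMIs at a ratio of 4.68, and 2 with the *Adgre1* and *Itgam* gate or with the Arg1 Spp1 cells low in macrophage markers, also chosen after seeing the data, as *Inhba* joined it. Of 268 ratios of single genes, 223 stayed within their interval, 44 left it and 1 reversed. A reversal was counted only for genes past 2-fold in the main setting. Other changes of direction are among the rest, such as *Tgfbr1* in *Yfp*+ over *Yfp*− cells at steady state, from 0.696 to 2.21 without the top cells. The cause of these shifts was not tested. A higher share of AngII macrophages had a UMI for 5 of 7 genes after thinning to 1000 UMIs and for 4 after thinning to 500 or 2000. This counts any larger share, and no such count over all genes is given. At 1000 UMIs only *Skil* had intervals apart, and *Inhba* counted through 1 cell of 1026 against 0 of 127. The median of 1092 UMIs on AngII limits what can be seen of *Inhba*, *Gdf15* and *Smad7* in single cells.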
